A study of Caenorhabditis elegans with 4 samples.

Results

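Outside one crowded stretch near its left end, chromosome III of Caenorhabditis elegans carried 1203 MRE-11 peaks in the series-level peak list, of 6864 peaks in the whole list. They were chosen by their measured position in that list, as the chromosome III peaks with a midpoint below 1000001 or above 2500000. The stretch left out was itself picked for its high measured peak density, so the density outside it is given as a description. It held the other 447 peaks of III and is called the dense cluster here. The same rule leaves 227 of 1579 peaks in the list of MRE-11 ChIP replicate 1 and 812 of 4403 peaks in that of MRE-11 ChIP replicate 2. Positions are on WormBase WS220.

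The study immunoprecipitated MRE-11-bound chromatin from young adult hermaphrodites that contain a germline, and sequenced the DNA (ChIP-seq). It has 2 MRE-11 ChIP samples, made with the affinity-purified rabbit polyclonal antibody SDQ2366, and 2 input samples of sheared chromatin without immunoprecipitation. All 4 samples carry fem-2(b245), an allele of a chromosome III gene, and were grown at 20 °C, and there is no wild-type or untreated group. Whole frozen worms were ground and crosslinked with EGS and then with EGS plus formaldehyde, so germline and body cells are mixed. The stage label reads young adult, while the growth protocol describes worms grown until gravid. No label says whether the replicates came from separate cultures.

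MRE-11 is the nuclease of a complex with RAD-50. The complex binds the ends of broken DNA and starts to trim them, which prepares the break for repair by copying from an intact chromosome. In the worm germline it acts on the breaks that SPO-11 makes on purpose in meiosis, when each chromosome pairs with its partner and exchanges DNA with it. The arms of worm autosomes are rich in repeats and hold most of the exchanges, while the centres hold more of the widely used genes. Each chromosome also has a pairing centre towards one end, which on III is the left one. fem-2 encodes a phosphatase needed for male development and for sperm.

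The 3 lists give an interval and a score for every peak. The score is the authors' peak caller's own value, its scale is not named in the files, and it was used here only to rank peaks within one list. No read counts and no input signal came with the lists, which leaves library depth unknown, and intervals on shares cover counting error only. Neighbouring peaks often lie under one peak of another list and are not independent, so no p-value is given.

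Chromosome III stayed the most densely occupied chromosome of the series-level list when its crowded stretch was left out. It had 97.9 peaks per Mb over the remaining 12.3 Mb, against 60.3 per Mb on I, II, IV, V and X together, a ratio of 1.63 (1.53 to 1.73 from counting error alone). The next chromosome was I with 87.2 peaks per Mb, and X had the fewest with 31.9. Covered sequence gave a smaller gap between III and I, at 3.92% of III outside the stretch and 3.76% of I.

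The replicates differed in how far III stood out. In replicate 1 the density ratio of III outside the stretch was 1.31, and in replicate 2 it was 1.65, a mean of 1.48 ± 0.24 (SD, n = 2). In replicate 1 III was not the densest chromosome: it had 18.5 peaks per Mb, against 19.3 on I and 18.4 on IV. In replicate 2 it was, with 66.1 peaks per Mb against 58.8 on I, which came next. The order of III and I by peaks per Mb thus differed between the replicates, and 2 samples of 1 group allow no test of it. By covered sequence, III outside the stretch came first in both. It had 3.58% in replicate 1, against 3.31% on IV and 3.28% on I, and 3.28% in replicate 2, against 3.12% on I. The crowded stretch also weighed unequally on the replicates. With it counted, the ratio of all III was 1.83 in replicate 1 and 1.68 in replicate 2.

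**Figure D1:**
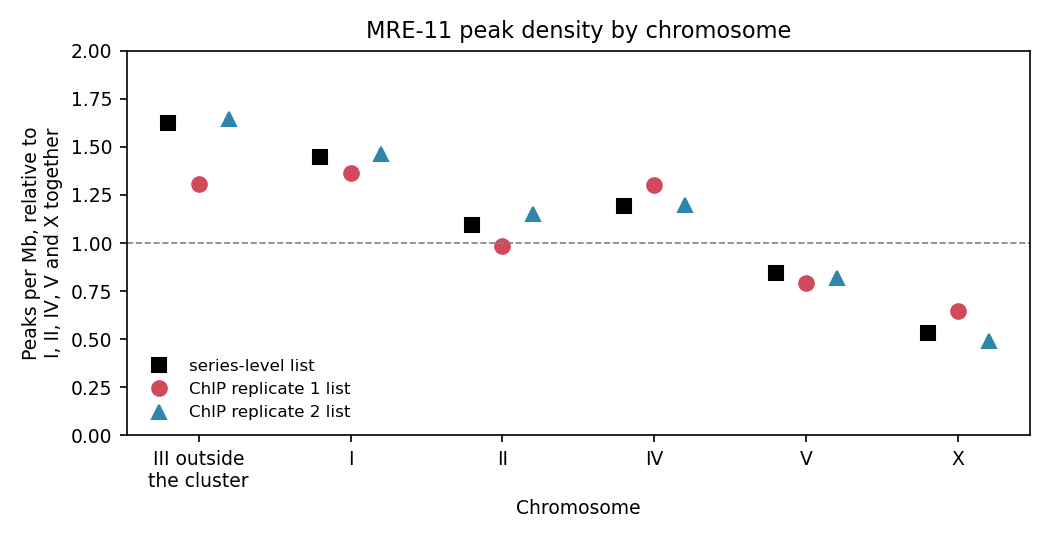
Peaks per Mb on each chromosome divided by the value for I, II, IV, V and X together (y axis), for the series-level list (squares), replicate 1 (circles) and replicate 2 (triangles); the dashed line marks equality. III outside the dense cluster lay at 1.63, 1.31 and 1.65, above I in the series-level list and in replicate 2 but not in replicate 1.

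The high density was spread along the chromosome. Cut into windows of 500 kb, the 24 full windows of III outside the stretch held 25 to 94 series-level peaks with a median of 45. The 170 full windows of I, II, IV, V and X held 5 to 89 with a median of 26. 23 of the 24 windows on III were above that median. In replicate 2, 23 of the 24 III windows were above the median of the other chromosomes (19 peaks), and in replicate 1, 19 of 24 were above it (6 peaks). Chromosome I was close to III, with 20 to 73 series-level peaks in its 30 full windows and a median of 44. In replicate 1 the median window held 9 peaks on both, and in replicate 2 it held 31.5 on III and 29.5 on I. Gaps between neighbouring series-level peaks had a median of 3.54 kb on III and 4.96 kb on the other chromosomes.

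Arms and centre, taken as 3 equal parts of the chromosome, differed little in peak density. 778 of the 1203 peaks (64.7%, 95% exact binomial interval 61.9 to 67.4) lay on the arms, which make up 62.6% of the length that remains. The ratio of those shares was 1.03, and on I, II, IV and V together it was also 1.03. The left arm held 110 peaks per Mb, the centre 92.5 and the right arm 95.5. Without its first 500 kb the left arm had 99.1 per Mb, close to the other parts.

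The arm share was higher in replicate 1 than in replicate 2, on III as on the other autosomes. In replicate 1 the arms held 69.2% of the 227 III peaks (62.7 to 75.1), and 75.0% of 1060 peaks on I, II, IV and V, where they make up 66.7% of the length. In replicate 2 they held 62.6% of the 812 III peaks (59.1 to 65.9), and 65.7% of 3125 on the other autosomes. Relative to length these are ratios of 1.10 in replicate 1 and 0.999 in replicate 2 on III, and of 1.125 in replicate 1 and 0.986 in replicate 2 on the other autosomes. The replicate 1 peaks were densest on the left arm, at 23.9 per Mb, against 15.2 in the centre and 18.1 on the right arm, while the replicate 2 peaks were even, at 66.9, 66.2 and 65.5 per Mb.

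**Figure D2:**
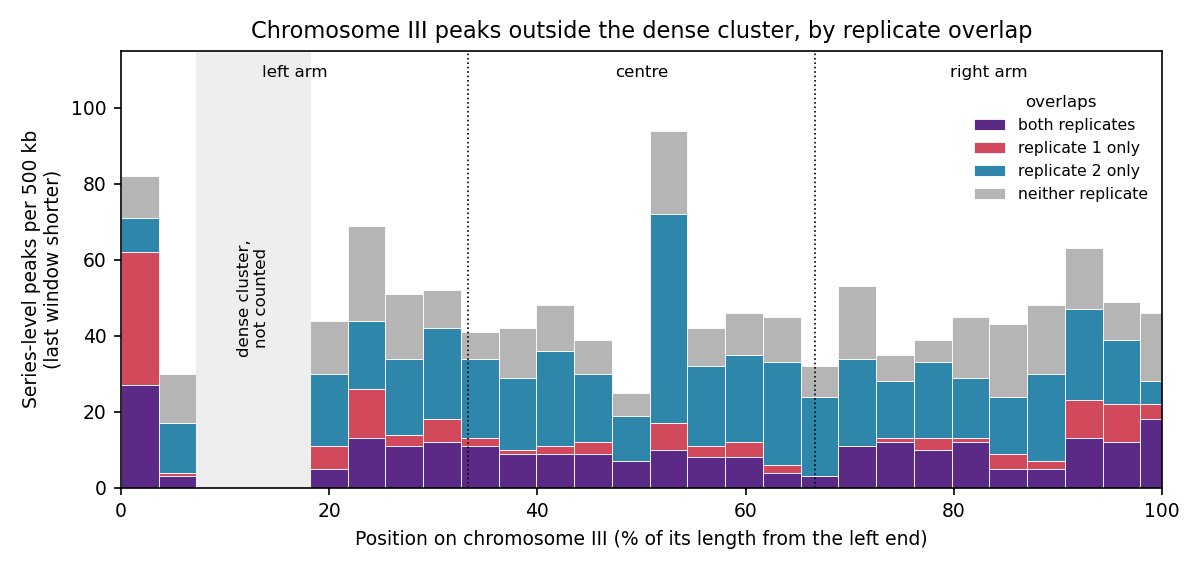
Series-level peaks of chromosome III in windows of 500 kb, by position in percent of its length (x axis) and coloured by the replicate lists they overlap; dotted lines separate arms and centre, and the grey band is the dense cluster left out. The first window (82 peaks) and the window just right of the middle (94 peaks) were the fullest, the first with 35 peaks found in replicate 1 only and the other with 55 found in replicate 2 only.

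Most of the 1203 peaks were also found in a replicate list. 874 (72.7%) overlapped at least 1 of them by 1 bp or more, near the share of 73.2% over all nuclear peaks of the list. 751 overlapped replicate 2 (62.4%, 59.6 to 65.2), where the share over all 6862 nuclear peaks of the list was 58.8%. 370 overlapped replicate 1 (30.8%, 28.2 to 33.5), where the share over all nuclear peaks was 37.7%. Both replicates thus found a part of these peaks, and replicate 2, which has the longer list, found more of them.

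Split by what they overlapped, 247 peaks were found in both replicates (20.5%; all nuclear peaks 23.2%) and 504 in replicate 2 only (41.9%; all nuclear peaks 35.6%). 123 were found in replicate 1 only (10.2%; all nuclear peaks 14.4%) and 329 in neither (27.3%; all nuclear peaks 26.8%). The comparison with all nuclear peaks contains the dense cluster, whose make-up differed from that of each chromosome: 293 of its 447 peaks (65.5%) were found in replicate 1 only and 12 (2.68%) in replicate 2 only. Of the 5212 peaks on I, II, IV, V and X alone, 24.2% were found in both (23.0 to 25.4), 36.9% in replicate 2 only (35.6 to 38.2), 11% in replicate 1 only (10.2 to 11.9) and 27.9% in neither (26.7 to 29.1). On III outside the cluster the intervals were 18.3 to 22.9 for both and 39.1 to 44.7 for replicate 2 only. These do not meet those of I, II, IV, V and X together. The intervals for replicate 1 only (8.57 to 12.1) and for neither (24.8 to 30.0) do. Without X, those of I, II, IV and V were 22.3 to 24.7 for both and 36.8 to 39.6 for replicate 2 only. Both meet the intervals of III outside the cluster. All these intervals treat peaks as independent, which neighbouring peaks are not, so they may be too narrow. Whether they meet is therefore no test of a difference. X itself had 29.9% in both and 26.5% in replicate 2 only. Chromosome I, with 21.1%, 41.6%, 10.4% and 26.8%, had shares within 1 percentage point of those of III outside the cluster.

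**Figure D3:**
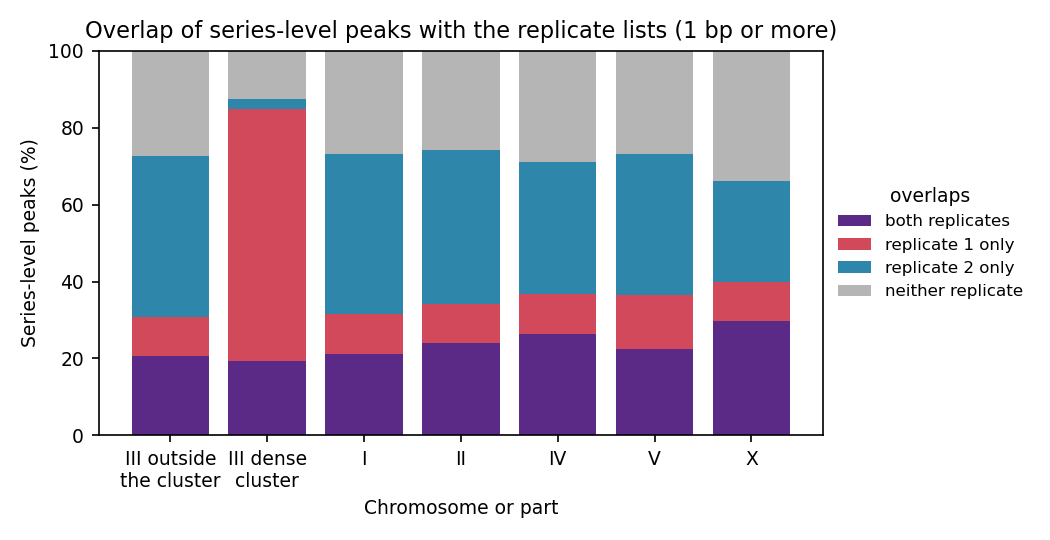
Share of the series-level peaks (y axis, percent) of each chromosome or part that overlapped both replicate lists, replicate 1 only, replicate 2 only or neither. The bar for III outside the dense cluster (41.9% replicate 2 only, 10.2% replicate 1 only) is nearest to that of I (41.6% and 10.4%), while the dense cluster has 65.5% replicate 1 only.

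Along III, the share found in replicate 1 was lowest in the centre. It was 40.7% of 339 peaks on the left arm (35.4 to 46.1), 22.6% of 425 in the centre (18.7 to 26.9) and 31.0% of 439 on the right arm (26.7 to 35.5). The share found in replicate 2 ran the other way, with 54.0%, 69.6% and 62.0%. Without its first 500 kb, the left arm had 257 peaks, of which 29.6% overlapped replicate 1 and 57.2% overlapped replicate 2, close to the right arm. The full windows ranged from 9.38% of 32 peaks overlapping replicate 1, between 9000001 and 9500000, to 75.6% of 82 peaks in the first window.

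The peaks were narrow and of middling score. Their median width was 284 bp (quartiles 207 and 417 bp, range 146 to 7715 bp), against 281 bp on I, II, IV, V and X. Their median score was 7.55 and their median percentile among the nuclear peaks of the list was 49.8. Broad peaks made up a slightly smaller share than elsewhere, a difference that was not tested: 60 of the 1203 (4.99%) were at least 1000 bp wide, against 6.62% of the 5212 peaks on the other chromosomes.

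At the top of the list the share of III outside the cluster was no larger than its share of all peaks. It held 17.5% of all nuclear peaks, 17.5% of the 1000 highest, 15.2% of the 501 highest (12.1 to 18.6; the 500th place was tied) and 10 of the 100 highest (10%, 4.90 to 17.6). The last 2 intervals both include 17.5%, that of the 100 highest only at its upper edge. They cover counting error only, and the smaller shares at the top were not tested. X took 37 of the 100 highest. Wider peaks tended to score higher, with a Spearman correlation across peaks of 0.57, and of 0.62 over the 5212 peaks on the other chromosomes. Both numbers come from the same calling of the same libraries.

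Higher-scoring peaks were found in the replicates more often. With the 1203 peaks split into 5 groups by score, the lowest group of 241 (scores 1.33 to 4.13) overlapped replicate 2 in 27.4% of cases and replicate 1 in 20.3%. In the highest group of 241 (scores 20.5 to 170.18) the shares were 99.2% and 59.8%. Replicate 2 shares were higher at each step, by way of 42.1%, 58.5% and 85.0%, whereas those of replicate 1 went through 16.7%, 24.9% and 32.1%. The other chromosomes were alike in the upper 50% of the list by score. There 86.9% overlapped replicate 2 and 46.7% replicate 1, against 87.5% and 42.6% on III outside the cluster. Every one of the 144 peaks of the highest group that overlapped replicate 1 also overlapped replicate 2. As 239 of the 241 peaks of that group overlapped replicate 2, this was nearly given.

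Width moved with these groups. The median width was 506 bp for peaks found in both replicates, 292 bp for replicate 2 only, 267 bp for replicate 1 only and 203 bp for neither. The median scores were 25.0, 9.02, 5.06 and 4.51 in that order. On I, II, IV, V and X the same classes had median widths of 522, 282, 258 and 196 bp. Their median scores were 27.8, 9.79, 5.58 and 4.48. A wide peak has more bases that can overlap, and the part of width in the overlaps was not tested.

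**Figure D4:**
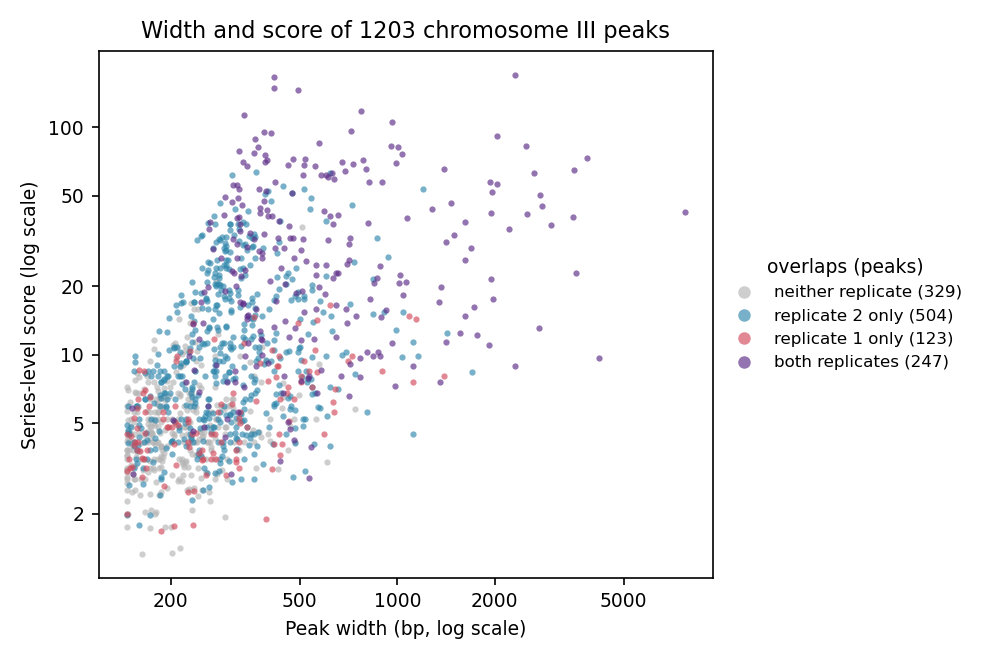
Width (x axis, bp, log scale) and series-level score (y axis, log scale) of each of the 1203 peaks, coloured by the replicate lists they overlap. Peaks found in both replicates (247) fill the upper and right part, and peaks found in neither (329) lie at low width and score, with a median of 203 bp and 4.51.

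Scores followed replicate 2 more closely than replicate 1. With 1 point for each replicate peak and the highest series-level score under it, the Spearman correlation was 0.78 over 763 replicate 2 peaks and 0.47 over 222 replicate 1 peaks on III outside the cluster. On I, II, IV, V and X the values were 0.77 over 3214 peaks and 0.48 over 1193. Counted instead with 1 point for each series-level peak, so that a long replicate peak enters many times, they were 0.73 over 751 peaks for replicate 2 and 0.13 over 370 for replicate 1 on III outside the cluster, with 0.74 and 0.18 on the other chromosomes. Over the 247 peaks found in both, the scores of the replicates themselves had a correlation of 0.42, against 0.47 over 1260 such peaks on the other chromosomes. These are descriptions across peaks, and the lists may share libraries, whose depth is unknown.

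The 12 highest-scoring peaks of III outside the cluster were all found in both replicates. So were 83 of the 100 highest-scoring peaks of that part. The first of the 12 was III:3867353-3869667 on the left arm, 2315 bp wide, with a score of 170.18 and rank 29 of the list. It lay in a replicate 1 peak of 5373 bp with a score of 1360.28, and its best replicate 2 peak scored 1816.46. Next came III:7854408-7854823 in the centre, only 416 bp wide, with a score of 165.63, and with replicate scores of 569.14 and 1926.74. III:10758926-10759341, also 416 bp wide, followed with 148.15 and with replicate scores of 302.41 and 1776.98. III:13643325-13643819, near the right end, had 145.95 and replicate scores of 589.05 and 1317.98.

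These top peaks were wider than most. They spanned 337 to 2315 bp, all above the median of 284 bp over the 1203 peaks, and 5 of the 12 were at least 500 bp wide, against 211 of the 1203 (17.5%). Among the 7 under 500 bp were III:8043724-8044060 (337 bp, score 113.74) and III:10460487-10460849 (363 bp, 88.86). Of the 12, 7 lay on the right arm, 3 on the left arm and 2 in the centre. The 100 highest-scoring peaks of III outside the cluster split more evenly, as 38, 27 and 35 in that order. All 1203 split as 439, 339 and 425. Those of the 12 on the right arm included III:13292894-13293665 (117.59), III:13296008-13296973 (105.63), III:10742358-10742765 (94.79) and III:10505048-10507081 (2034 bp, 91.23). Those on the left arm included III:4475419-4476140 (96.57) and III:2785852-2786240 (95.15).

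Replicate 2 ranked all 12 near its top, and replicate 1 spread them over a wide range of ranks. Their best replicate 2 peaks lay between percentiles 90.1 and 99.1 of that list, with a median of 94.5. Their replicate 1 peaks lay between percentiles 42.4 and 91.7 of that list, with a median of 71.8. The lowest was that of III:8043724-8044060, whose replicate 1 score of 118.32 ranked 911 of 1579, against rank 286 of 4403 in replicate 2 with 1127.45.

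The widest peaks were other peaks. III:6566789-6574503 in the centre spanned 7715 bp with a series-level score of 42.25, and both replicates gave it almost the same span, 8499 bp in replicate 1 and 7747 bp in replicate 2, with a score of 3100 in each. Several peaks of each replicate list share the score 3100, tied at rank 6 in replicate 1 and rank 7 in replicate 2. III:424600-428087 (3488 bp, 40.47) scored 2365.25 in replicate 1 and 3100 in replicate 2, and III:5353028-5356542 (3515 bp, 64.65) scored 3040.76 and 2596.01. The replicate peaks over the last of these were longer than it, at 6368 bp in replicate 1 and 5535 bp in replicate 2. These 3 scored above 2000 in both replicates. The other 3 of the 6 widest each lay inside a much longer replicate 1 peak. III:325742-329939 (4198 bp) had a series-level score of only 9.65, inside a replicate 1 peak of 12287 bp and over 7 replicate 2 peaks. III:273347-276918 (3572 bp, 22.92) lay inside the widest replicate 1 peak of III outside the cluster, 15260 bp long, whose score was only 171.3. III:7444268-7448117 (3850 bp, 72.89), the highest peak of the fullest window, lay in a replicate 1 peak of 9011 bp with a score of 352.38, and its best replicate 2 peak was 2247 bp wide with a score of 3073.81.

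The 2 fullest windows of 500 kb differed in which replicate they shared. III:7000001-7500000 in the centre held 94 peaks, of which 65 overlapped replicate 2 (69.1%) and 17 overlapped replicate 1 (18.1%). III:1-500000 held 82, of which 36 overlapped replicate 2 (43.9%) and 62 overlapped replicate 1 (75.6%). Its highest peak was III:414193-416692 (2500 bp, score 82.91), with scores of 2797.72 and 3100 in replicates 1 and 2. Among the first 500 kb of the 6 chromosomes, III had the largest share of peaks found in replicate 1 only (35 of 82, 42.7%), followed by X (26 of 67, 38.8%), II (21.9% of 32), IV (5.71% of 35), V (5.56% of 18) and I (5.17% of 58).

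The most crowded short stretches lay in these 2 windows and on the right arm. Peaks with 2 kb or less between them were joined into chains, a rule set after the values were seen. 475 of the 1203 peaks stood alone, and 8 chains of 10 or more held 102 peaks (8.48%). The longest lay in the centre at III:7414652-7439802, with 24 peaks in 25.2 kb, a median width of 244 bp and scores of 1.78 to 12.4. 19 of the 24 overlapped replicate 2 and 0 overlapped replicate 1, which had no peak there. A second chain of 10 peaks, III:7405465-7411998, lay just to its left. Together they held 34 peaks in 34.3 kb, 28 of them found in replicate 2 and 0 in replicate 1, over 26 replicate 2 peaks with scores of 51.9 to 480.26.

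The left arm showed the opposite. III:272636-287200 had 14 peaks in 14.6 kb, and all 14 lay under the single replicate 1 peak of 15260 bp, while 3 overlapped replicate 2. III:69955-78966 had 12 peaks, 10 found in replicate 1 and 1 in replicate 2. III:314050-333111 had 11 peaks and a higher share in common, 11 found in replicate 1 and 8 in replicate 2, with replicate 1 scores of 2315.7 and 3199.28 over the 2 peaks there. Scores in the series-level list were low in most of these chains, with medians of 5.97, 4.67 and 8.91.

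The right arm held 3 more chains, which differed among themselves. III:13584242-13599004 had 11 peaks in 14.8 kb that were found in both replicates without exception, as 1 replicate 1 peak of 15149 bp and 18 replicate 2 peaks. III:13074919-13081790 had 10 peaks, 9 found in replicate 1 and 3 in replicate 2, much as in the left arm chains. III:13775656-13783723, 8.07 kb that end with the last peak of the chromosome, had 10 peaks that were found in neither replicate list.

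**Figure D5:**
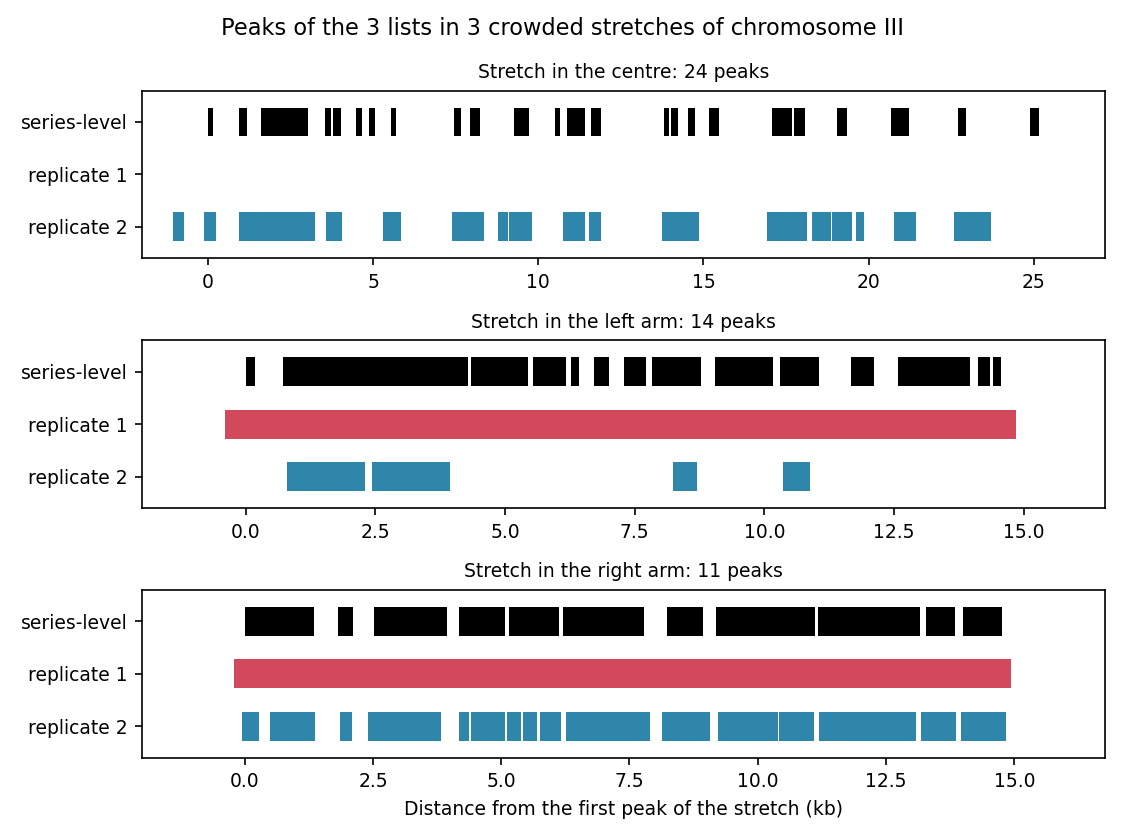
Peak intervals of the series-level list, replicate 1 and replicate 2 in 3 crowded stretches of III (x axis, kb from the first peak of the stretch). The centre stretch of 24 peaks has no replicate 1 peak, the left arm stretch of 14 lies under 1 replicate 1 peak of 15260 bp with 4 replicate 2 peaks, and the right arm stretch of 11 is filled by both.

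The chromosome's length was taken as the end of its last peak, so a peak at the right end is given by that definition. The first peak, III:1-361, had a series-level score of 32.32 and was found in both replicates, with scores of 336.02 in replicate 1 and 248.68 in replicate 2. The last, III:13783216-13783723, scored 36.36 and was found in neither, and it was the strongest of all 329 such peaks on III outside the cluster. The next were III:3953322-3953597 (20.97) and III:7710046-7710275 (16.79). At the other extreme, the longest peak-free gap ran for 167 kb, from 8447718 to 8614446, and 1 replicate 1 and 2 replicate 2 peaks reached into it. Of these, 1 replicate 2 peak lay wholly inside the gap, and the others ran in from its edges. The second, of 154 kb from 9237377 to 9390945, had no peak in any of the 3 lists.

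Peaks found in a single replicate reached higher scores when that was replicate 2. The highest found in replicate 2 only were III:4756981-4757347 (63.64), III:5172194-5172813 (63.15) and III:9408209-9408517 (61.67), whose replicate 2 scores were 632.85, 918.21 and 759.41. The highest found in replicate 1 only were III:7142028-7142648 (16.52), III:276982-278070 (14.84) and III:4087516-4087875 (14.61), with replicate 1 scores of 813.66, 171.3 and 53.89. The medians of these classes over the other chromosomes were 9.79 for replicate 2 only and 5.58 for replicate 1 only, near the 9.02 and 5.06 of III outside the cluster. The highest scores there were 78.92 and 57.66, closer together than the 63.64 and 16.52 of III outside the cluster.

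Seen from the replicate lists, III outside the cluster was well covered. 222 of its 227 replicate 1 peaks (97.8%) and 763 of its 812 replicate 2 peaks (94.0%) overlapped a series-level peak, against 97.6% and 92.5% on I, II, IV, V and X. 193 replicate 1 peaks (85.0%, 79.7 to 89.4) overlapped a replicate 2 peak, against 81.8% of 1222 on the other chromosomes. 277 replicate 2 peaks (34.1%, 30.9 to 37.5) overlapped a replicate 1 peak, against 39.1% of 3475. In the dense cluster these shares were 47.7% of 130 and 87.9% of 116. Outside the cluster most replicate 1 peaks had a replicate 2 partner, and inside it most replicate 2 peaks had a replicate 1 partner.

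The replicate peaks differed in grain on III as elsewhere. Replicate 1 peaks of III outside the cluster were broad, at a median of 1285 bp, with 1432 bp on the other chromosomes. Those of replicate 2 were shorter, at 384 bp, with 375 bp elsewhere. 85 of the 227 replicate 1 peaks (37.4%) lay over 2 or more series-level peaks, and 30 of the 812 replicate 2 peaks (3.69%) did. The strongest replicate peaks that no series-level peak overlapped reached at most percentile 54.6 of the replicate 2 list and 23.2 of the replicate 1 list. In replicate 2 they were III:12346582-12347071 (170.6), III:4437229-4437952 (109.69) and III:4856142-4856537 (102.12). In replicate 1 they were III:265169-266416 (76.72), III:985324-986815 (76.39) and III:4000632-4001841 (63.6).

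The borders of the part left out cut through peaks unequally. The last peak kept on the left, III:991236-991393 (158 bp, score 5.97), was found in neither replicate, and the first left out, III:1017256-1020649 (3394 bp, 62.48), was found in both. On the right, the last left out, III:2496899-2501907 (5009 bp, 69.09), and the first kept, III:2502163-2502727 (565 bp, 14.27), lay under the same replicate 1 peak of 7172 bp with a score of 3100. That border runs through this replicate 1 peak, the last peak left out and the replicate 2 peak III:2496934-2501980. The midpoint of the last peak kept on the left was 8.69 kb from the border, and that of the first kept on the right 2.45 kb.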

How the data were processed

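Peak lists were available for the 2 MRE-11 ChIP samples and for the series as a whole. The 2 input samples had no list here. Reads were aligned with BWA to ce10, per the submitters' processing notes. Peaks were called with MACS (replicates) and MACS v2 (series-level list) on WormBase WS220, per the file headers and source columns. The deposited score is the authors' peak caller's own value, with no named scale. Control, thresholds and pooling are not given in the sources used here, and depth is unknown.

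Intervals were used as deposited, 1-based. Chromosome length was the largest peak end in any list. A gene table was at hand for another assembly only, so no gene was assigned and no sequence is shown. Overlap meant 1 bp or more, each arm was 1 of 3 equal parts of the chromosome, and shares carry 95% exact (Clopper-Pearson) intervals. No test was made: the members were chosen on this list, and 2 samples of 1 group allow none. The overlap code was checked on simulated lists. The members, lists and comparisons were chosen with earlier results of these data known. Named peaks were the 12 highest and 6 widest, the 3 highest found in replicate 1 only, in replicate 2 only and in neither, those at borders and ends, the highest of the 2 fullest windows, and the 3 highest replicate peaks without a series-level peak. Chains, gaps, score groups, chromosome ends, the density of joined peaks and the settings without the 2 fullest windows were added with the values in view. Python 3.11.15, numpy 2.4.6, pandas 2.3.3, scipy 1.17.1 and matplotlib 3.10.9 were used.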

Additional observations from a re-analysis of the deposited data

How the results depend on the processing

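Of 45 alternative values for 8 results, 30 stayed within the interval or the replicate SD of the reported value and 15 did not. For the mean ratio of the replicates the SD gave a wide band, 1.24 to 1.72. With n = 2 such a band always holds the value of each replicate, so leaving 1 out could not fall outside it. For the series-level density ratio of 1.63, covered bases gave 1.49, the other autosomes as the comparison 1.45, III without its 2 fullest windows (added after seeing the data) 1.51, and III with nothing left out 1.99. The mean ratio of the replicates was 1.75 with nothing left out, and ranged from 1.31 to 1.65 with 1 replicate left out. In the upper 50% by score, replicate 1 alone had 1.10 and replicate 2 alone 1.60. The median width was 308.5 bp with peaks within 500 bp joined and 360 bp in the upper 50% by score. The upper 50% by score overlapped replicate 1 in 42.6%, replicate 2 in 87.5% and both in 37.2% of cases (46.7%, 86.9% and 41.2% on I, II, IV, V and X). Peaks of 200 bp or more did so in 35.8%, 72.2% and 26.4%. Counting peaks within 500 bp as overlapping gave 70.5% for replicate 2 and 26.4% for both. The causes were not tested. No paired analysis was possible because only ChIP lists were analysed here, and the same-numbered inputs brought none. No depth was given with the lists, so its part in these values was not tested.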
